A study of Mus musculus with 6 samples.

Results

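The genes described here encode kinesin motors, centromere proteins and the subunits of the condensin, cohesin and SMC5/6 complexes. They are all rows of the deposited read count file whose symbol begins with Kif and a digit, Cenp and a letter, Ncapd, Ncapg, Ncaph, or Smc and a digit, which gave 71 of 23951 genes. The values come from total RNA of fetal liver haematopoietic stem cells of C57BL/6 mice, 3 libraries from RISP wild type (WT) and 3 from RISP knockout (KO) cells. RISP is the Rieske iron-sulfur protein of respiratory complex III, encoded by Uqcrfs1. The sources used here do not give the age of the embryos, the agent or driver that removes the gene or the number of animals behind each library. P-values therefore measure only how far these 6 libraries spread, part of which may be technical. Library values are given below in the order of replicates 1, 2 and 3.

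Kinesins walk along microtubules or take their ends apart. Mitotic kinesins build the spindle, move chromosomes and close the cell at division, and most are made only in dividing cells, while transport kinesins carry organelles and vesicles in cells of any phase. Centromere proteins mark the centromere and link it to microtubules, from the inner kinetochore on the chromatin to the fibrous corona that faces the spindle. SMC proteins are long coiled-coil ATPases that pair up into rings: SMC2 with SMC4 in condensin, which compacts chromosomes with Ncap subunits, SMC1A with SMC3 in cohesin, which holds sister chromatids together, and SMC5 with SMC6 in a complex of DNA repair. Stem cells of the fetal liver are known to divide actively, unlike most of those in adult marrow.

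Many promoters of mitotic genes hold a short element called the cell cycle genes homology region, bound by the complexes that restrain or drive late cell cycle transcription. Its core letters, TTTGAA, were searched on both strands (TTCAAA is the same site on the other strand) in RefSeq promoter windows of build GRCm38.p6, which run from 250 bases before to 50 bases after a gene's start. A window was found for 62 of the 69 protein-coding members, and not for Kif13b, Kif19a, Kif20a, Kif21b, Kif5a, Kif5b and Smc4. Where a gene had several windows, the one listed first was read. The letters occurred in 9 of 11 windows of mitotic kinesins and in 0 of 11 of transport kinesins, against 18.1% of the 27025 genes with a window. Within 30 bases of the start, a distance chosen after the windows were seen, they occurred in 7 of the 11 mitotic kinesins against 3.10% of all genes.

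The match nearest the start is shown for every mitotic kinesin that holds one, followed by every other member with a match within 30 bases of the start. They are shown because the letters stand in mitotic kinesins and in no transport kinesin window, and in members that rose as well as members that did not pass the test. Each line reads 5′ to 3′ on the strand of the gene, with the match in capitals.
Kif20b, chr19:34922353-34922382, plus strand: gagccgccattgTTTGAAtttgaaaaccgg
Kif15, chr9:122951050-122951079, plus strand: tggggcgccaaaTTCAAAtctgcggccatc
Kif11, chr19:37376351-37376380, plus strand: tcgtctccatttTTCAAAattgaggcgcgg
Kif4, chrX:100626072-100626101, plus strand: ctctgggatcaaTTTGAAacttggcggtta
Kif14, chr1:136467608-136467637, plus strand: ggaggtcctgtcTTTGAAgtctgcagtgtc
Kif23, chr9:61946780-61946809, minus strand: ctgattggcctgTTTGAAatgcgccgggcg
Kif18b, chr11:102925104-102925133, minus strand: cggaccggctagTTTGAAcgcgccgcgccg
Kif22, chr7:127042420-127042449, minus strand: gggccccggtaaTTCAAAagagagaagcgg
Kif2c, chr4:117178858-117178887, minus strand: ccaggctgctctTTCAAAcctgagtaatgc
Cenpf, chr1:189688067-189688096, minus strand: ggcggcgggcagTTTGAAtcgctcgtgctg
Smc2, chr4:52439235-52439264, plus strand: ctcgcgccgaaaTTCAAAggaacagttccg
Cenpa, chr5:30666890-30666919, plus strand: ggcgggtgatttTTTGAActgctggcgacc
Cenpn, chr8:116921719-116921748, plus strand: gccattggcggcTTCAAAagcacctcggcg
Cenpw, chr10:30200548-30200577, minus strand: tccggcggccaaTTCAAAtcgaccactcgg
Ncapg, chr5:45669883-45669912, plus strand: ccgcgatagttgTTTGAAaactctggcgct
Ncapg2, chr12:116405406-116405435, plus strand: tacgcgggtgtgTTTGAAtctggtccgagc
Kif26b, chr1:178529104-178529133, plus strand: tgggagaatttcTTTGAActcagttagcga
The match of Kif14 begins 228 bases and that of Kif2c 103 bases before the start, and the others lie within 30 bases of it. Of the members shown that are not mitotic kinesins, Cenpf and Smc2 rose, Kif26b was not tested and the rest did not pass. In Kif20b the capitals are followed directly by another copy of the same letters.

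Among tested members with a window, the letters stood in 5 of 5 mitotic kinesins that were higher in KO and in 4 of 5 that did not pass the test. None of the 3 higher transport kinesins with a window held them. A box of the letters CCAAT, also searched on both strands, stood in 10 of 13 windows of inner kinetochore genes and in 7 of 11 of mitotic kinesins, against 37.9% of all genes. A match is a stretch of letters and not a shown binding site.

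The knocked-out gene was read first. Counts of Uqcrfs1 were 771, 1320 and 791 in WT and 60, 51 and 39 in KO, so each library matched its label. Total counts per library lay between 10191354 and 14590844. Stem and progenitor markers, Kit and Cd34 among them, summed to 2451 to 3046 CPM in WT and 2006 to 2249 CPM in KO. Of these, 6 of 12 were lower and 0 higher in the edgeR test described below, against 4.99% and 6.41% of all genes tested. CPM are counts relative to a library's total after TMM scaling. Erythroid markers summed to 210 to 459 CPM in WT and 38.9 to 62.1 CPM in KO, with 5 of 7 tested lower and Hba-a1 and Hbb-b1 at 0 counts throughout. Macrophage markers reached 948 CPM in WT replicate 3 and lay between 35.3 and 176 CPM in the other libraries. Endothelial markers reached 1018 CPM in that library and lay between 145 and 383 CPM in the others. Hepatoblast markers summed to 131 to 180 CPM in WT and 72.8 to 140 CPM in KO, and mast cell markers to 196 to 208 CPM in WT and 214 to 306 CPM in KO. Of the tested markers, 1 of 8 hepatoblast and 1 of 7 endothelial genes were lower. Among mast cell markers 1 of 4 was higher, and 0 of 10 macrophage markers passed. What these cell types add to the values below was not tested. In bulk RNA, more cells of a kind and more RNA per cell cannot be told apart.

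Of the 71 genes, 61 passed the filter on low counts. Of these, 19 were higher in KO and 0 lower at a Benjamini-Hochberg adjusted p under 0.05 (edgeR quasi-likelihood test over 12204 genes), while 6.41% of all genes tested were higher and 4.99% lower. Their median log2 fold change was 0.38, against -0.02 over all genes tested. In 29 of the 61, every KO library lay above every WT library, which held for 15.7% of all genes, and in 1, Cenpl, every KO library lay below, which held for 14.5%. The higher members were 5 mitotic kinesins, 5 transport kinesins, 4 centromere proteins outside the inner kinetochore and 5 SMC ATPases. None of the 13 inner kinetochore genes and none of the 6 Ncap genes passed. At an unadjusted p under 0.05, 27 members were higher and 1 was lower, against 12.7% and 12.3% of all genes tested. DESeq2 called 20 members higher and 0 lower, against 6.04% and 5.61% of the 15453 genes for which it gave a fold change. Genes without an adjusted p were counted there as not called, so these 2 shares may be too low.

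**Figure D1:**
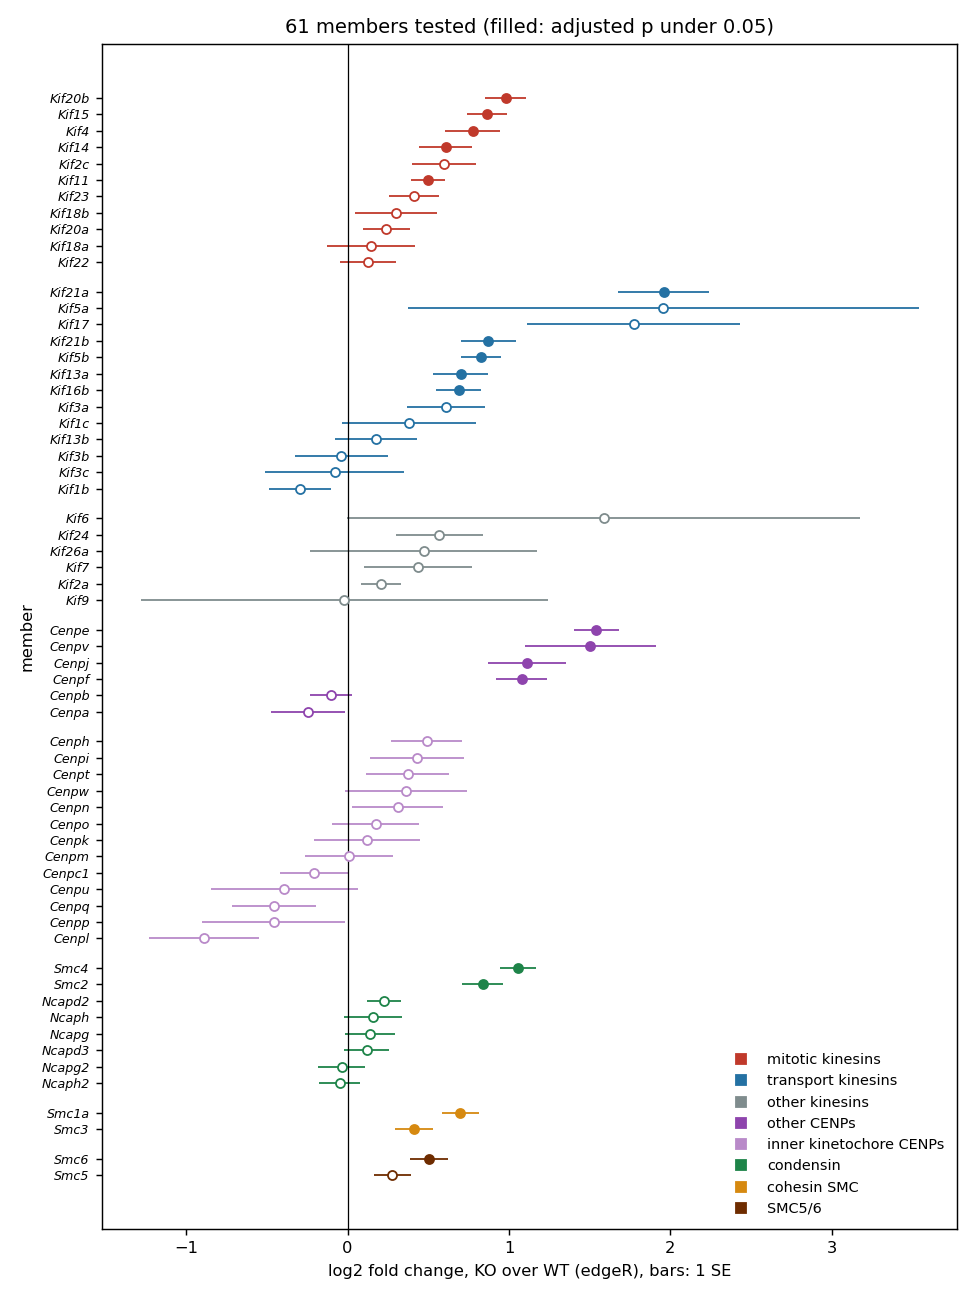
Each tested member on a row with its log2 fold change, KO over WT, as a point and 1 SE as a bar, coloured by role; filled points passed an adjusted p of 0.05. The 19 filled points all lie right of 0, while the 13 inner kinetochore genes run from -0.89 to 0.49 around it.

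Mitotic kinesins were higher in KO in 5 of 11 tested genes and lower in 0, against 6.41% and 4.99% of all genes tested. Their median log2 fold change was 0.50. All 11 had a positive fold change, as did 5864 of the 12204 genes tested. In 8 every KO library lay above every WT library, which held for 15.7% of all genes. Kif20b, a kinesin needed for the last steps of cell division, had 95.1, 93.4 and 93.4 CPM in WT and 184, 187 and 184 CPM in KO. Its libraries were nearly level within each group, and it rose by 0.98 on the log2 scale (SE 0.13, adjusted p = 2.95e-05). Kif15, which helps to keep the spindle poles apart, had 136, 157 and 134 CPM in WT and 225, 287 and 264 CPM in KO. The lowest KO library was KO replicate 1, still above every WT library, and the gene rose by 0.86 on the log2 scale (SE 0.13, adjusted p = 1.09e-04).

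Kif11, the motor that pushes the spindle poles apart, had 213, 220 and 232 CPM in WT and 319, 324 and 296 CPM in KO. It was the mitotic kinesin with the highest level per length, at 54.0 RPKM in WT and 77.4 RPKM in KO by the authors' values, which are scaled to gene length and library size, and rose by 0.50 on the log2 scale (SE 0.11, adjusted p = 0.00405). Kif4, a motor of chromosome arms and the central spindle, had 69.8, 70.5 and 57.2 CPM in WT and 108, 135 and 93.9 CPM in KO. KO replicate 2 was the highest library, and without it the adjusted p was 0.0623, against 0.00483 with all libraries (log2 fold change 0.77, SE 0.17). Kif14, which acts at the midbody, had 56.2, 67.7 and 70.9 CPM in WT and 92.3, 109 and 95.3 CPM in KO. The groups did not overlap (log2 fold change 0.61, SE 0.16, adjusted p = 0.0183). The Kif14 call was lost on leaving out either WT replicate 1 or one of KO replicates 2 and 3, with an adjusted p of up to 0.119. Kif11 and Kif14 also lost their calls with limma on the deposited RPKM, where 2.83% of all genes were higher, and Kif14 with offsets for coding length.

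The other 6 mitotic kinesins did not pass. Kif2c, which takes microtubule ends apart at the centromere, had 48.3, 40.0 and 43.7 CPM in WT and 73.1, 76.6 and 50.1 CPM in KO. Its log2 fold change was 0.60 with an SE of 0.20 and an adjusted p of 0.0587, and it passed with scaling by library totals, with no filter, without KO replicate 3 and with offsets for length and GC content (adjusted p = 0.0459 with these). Kif23, of the central spindle, had 68.0, 77.1 and 69.3 CPM in WT and 91.2, 96.4 and 97.8 CPM in KO, with no overlap between groups (adjusted p = 0.0905). Kif20a, its neighbour in the central spindle, had 88.2, 85.1 and 87.0 CPM in WT and 97.1, 98.9 and 112 CPM in KO (adjusted p = 0.334). Kif18a, Kif18b and Kif22 had log2 fold changes of 0.15, 0.30 and 0.13 with overlapping libraries, and that of Kif18a was -0.12 without KO replicate 3. Kif2b had 0 counts in every library.

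**Figure D2:**
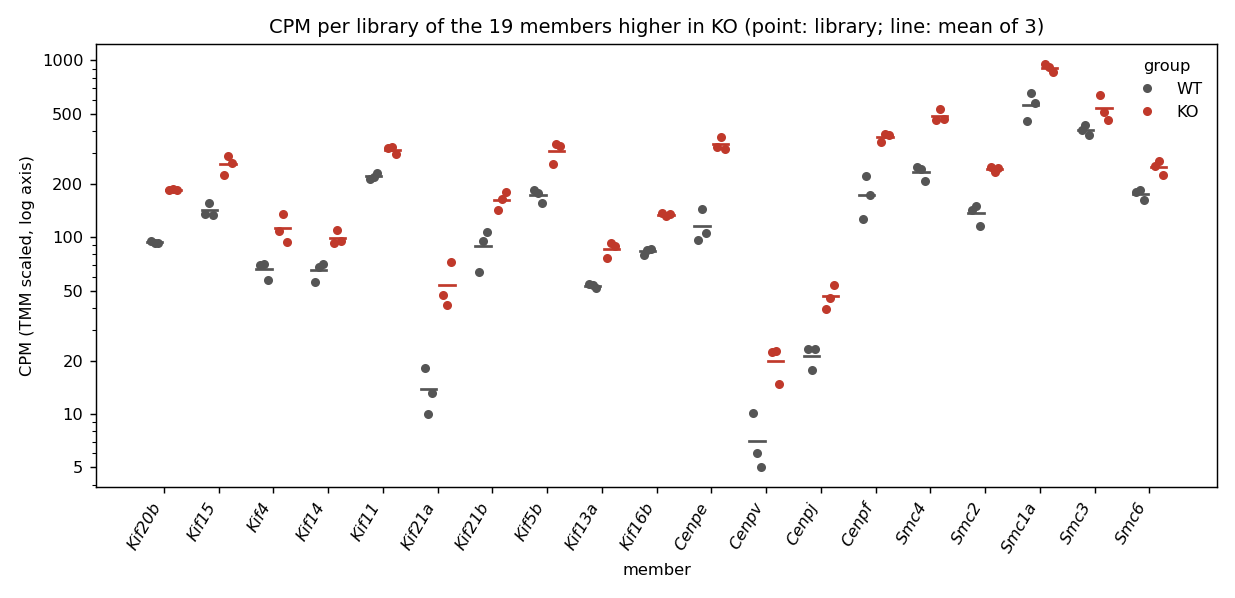
CPM of the 19 members higher in KO on a log axis, with a point for each library and a line at the mean of 3, WT in grey and KO in red. In each of the 19 the lowest red point lies above the highest grey point, and levels run from 5.01 CPM for Cenpv in WT replicate 3 to 953 CPM for Smc1a in KO replicate 1.

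Of the transport kinesins, 5 of 13 tested were higher in KO and 0 lower, against 6.41% and 4.99% of all genes tested. Their median log2 fold change was 0.69. In 7 every KO library lay above every WT library, which held for 15.7% of all genes. The difference between transport and mitotic kinesins was not tested. Kif21a had the largest fold change of any member that passed. Like Kif21b it is grouped here with the transport kinesins, though it is a motor of the cell cortex that slows microtubule growth. It had 18.3, 9.96 and 13.2 CPM in WT and 47.3, 41.7 and 72.1 CPM in KO, and rose by 1.96 on the log2 scale (SE 0.28, adjusted p = 1.09e-04). Its relative Kif21b had 64.0, 95.1 and 107 CPM in WT and 142, 165 and 181 CPM in KO, a log2 fold change of 0.87 (SE 0.17, adjusted p = 0.00192). Both genes lay higher in every KO library than in any WT library.

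Kif5b, the heavy chain of conventional kinesin and the transport kinesin with the highest level, stood at 37.4 RPKM in WT and 69.1 RPKM in KO. It had 186, 179 and 156 CPM in WT and 260, 335 and 328 CPM in KO (log2 fold change 0.83, SE 0.12, adjusted p = 1.44e-04). Kif16b, which moves early endosomes, was even within groups, at 79.5, 84.6 and 86.1 CPM in WT and 136, 132 and 136 CPM in KO (log2 fold change 0.69, SE 0.14, adjusted p = 0.00238). Kif13a, which carries endosomes and melanosomes, had 54.2, 53.5 and 51.8 CPM in WT and 76.9, 92.7 and 89.7 CPM in KO. Its log2 fold change was 0.70 (SE 0.17, adjusted p = 0.00928), and its adjusted p was 0.0623 without KO replicate 2 and 0.0586 with offsets for coding length. Kif13a and Kif21b lost their calls with limma on RPKM.

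The remaining transport kinesins went both ways. Kif17 had 4.71, 2.61 and 1.00 CPM in WT and 12.04, 6.99 and 9.31 CPM in KO, with an adjusted p of 0.0881 in edgeR, and it passed in DESeq2. Kif3a, a motor of cilia and vesicles, had 22.8, 26.0 and 33.8 CPM in WT and 47.8, 41.6 and 36.8 CPM in KO (adjusted p = 0.109). Its partner Kif3b averaged 23.3 ± 3.83 CPM in WT libraries and 22.7 ± 4.88 CPM in KO libraries (SD, n = 3 each). Kif1b, which carries mitochondria and synaptic vesicle precursors, had 58.9, 51.2 and 77.5 CPM in WT and 48.5, 51.2 and 53.2 CPM in KO, with overlapping groups (log2 fold change -0.30, adjusted p = 0.371). Kif1c, Kif3c, Kif5a and Kif13b did not pass either, and Kif3c had a log2 fold change of -0.08. Kif1a had 0 counts in every library, and Kif5c had 7 counts in WT replicate 1, 5 in KO replicate 3 and 0 elsewhere. Of the other kinesins, 0 of 6 tested passed in edgeR and 0 in DESeq2, where 6.41% and 6.04% of all genes were higher. At an unadjusted p under 0.05, 1 of the 6, Kif24, was higher, against 12.7% of all genes. With 6 genes, these counts lie near the shares over all genes. Kif12, Kif19a, Kif26b and Kif27 had at most 41 counts in any library and were not tested. The most abundant of these, Kif2a, a microtubule depolymerase of spindle poles and of nondividing cells, had 152, 140 and 139 CPM in WT and 174, 161 and 163 CPM in KO (adjusted p = 0.313).

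Among centromere proteins, 4 of 19 tested genes were higher and 0 lower, against 6.41% and 4.99% of all genes tested. All 4 lay outside the inner kinetochore. Cenpe, a kinesin of the kinetochore corona that moves chromosomes to the middle of the spindle, had 96.4, 145 and 106 CPM in WT and 322, 370 and 318 CPM in KO. By its symbol it is counted here with the centromere proteins and not with the mitotic kinesins. Its log2 fold change of 1.54 (SE 0.14, adjusted p = 3.71e-07) was the one with the smallest p of all members. Cenpf, a very long coiled-coil protein of the corona, had 126, 223 and 173 CPM in WT and 344, 384 and 377 CPM in KO. It rose by 1.08 on the log2 scale (SE 0.16, adjusted p = 3.60e-04), with WT replicate 2 the highest WT library for both genes.

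Cenpj and Cenpv bear centromere symbols with other or further roles. Cenpj, which builds centrioles, had 23.3, 17.7 and 23.4 CPM in WT and 39.5, 45.6 and 53.8 CPM in KO (log2 fold change 1.11, SE 0.24, adjusted p = 0.00469), and lost its call with limma on RPKM. Cenpv had 10.1, 6.05 and 5.01 CPM in WT and 22.4, 22.7 and 14.9 CPM in KO (log2 fold change 1.504, SE 0.40, adjusted p = 0.0184). It had the lowest CPM of the members that passed, though not the lowest RPKM (5.96 in WT, against 1.74 for Kif21a), and its call was lost on leaving out any one of WT replicates 2 and 3 and KO replicates 1 and 2, with an adjusted p of up to 0.103. Cenpa, the histone variant that defines the centromere, had 41.0, 63.0 and 50.7 CPM in WT and 41.2, 56.3 and 33.1 CPM in KO, with overlapping groups (adjusted p = 0.565). Cenpb, which binds satellite DNA, averaged 129 ± 10.6 CPM in WT libraries and 120 ± 2.64 CPM in KO libraries (SD, n = 3 each, edgeR adjusted p = 0.696).

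Inner kinetochore genes, whose products join centromeric chromatin to the outer kinetochore, had 0 of 13 past the threshold in edgeR and also 0 in DESeq2. Among all genes, 6.41% were higher and 4.99% lower in edgeR, and 6.04% and 5.61% in DESeq2. With 13 genes, 0 calls lie near these shares. Of the 13, 10 lie in the 5 shortest deciles of transcript length, where 3.79% of all genes were higher in edgeR. At an unadjusted p under 0.05, Cenph was higher and Cenpl lower. Their median log2 fold change was 0.12, with 8 of 13 above 0. It was 0.21 with length offsets, with or without GC content, 0.24 with coding length offsets, 0.26 with limma on RPKM, and between 0.02 (without WT replicate 3) and 0.20 (without KO replicate 2) with a library left out. The most abundant by CPM, Cenpc1, which ties CENP-A nucleosomes to the kinetochore, had 59.8, 52.6 and 61.1 CPM in WT and 34.7, 55.7 and 59.8 CPM in KO (adjusted p = 0.596). Cenph had the highest fold change of the group, with 29.2, 31.8 and 36.2 CPM in WT and 41.9, 54.3 and 40.2 CPM in KO. Its adjusted p was 0.170, and 0.0285 with offsets for length and GC content. Cenpl had the lowest, with 15.6, 22.3 and 38.0 CPM in WT and 12.8, 15.4 and 12.9 CPM in KO (log2 fold change -0.89, SE 0.34, adjusted p = 0.102), and it was called lower without WT replicate 1.

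Both SMC ATPases of condensin were called higher in KO, while none of its Ncap subunits passed the test. Smc4 had 249, 242 and 209 CPM in WT and 461, 529 and 465 CPM in KO, a log2 fold change of 1.06 (SE 0.11, adjusted p = 2.44e-06). Smc2 had 143, 151 and 117 CPM in WT and 250, 235 and 247 CPM in KO, a log2 fold change of 0.84 (SE 0.12, adjusted p = 1.35e-04). For both, every KO library lay above every WT library, and the calls held whichever library was left out.

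The Ncap subunits form the rest of the ring, with Ncaph or Ncaph2 closing it and the Ncapd and Ncapg proteins bound to it. Condensin I holds Ncapd2, Ncapg and Ncaph, and condensin II holds Ncapd3, Ncapg2 and Ncaph2. Of these, 0 of 6 passed in edgeR and 0 in DESeq2, where 6.41% and 6.04% of all genes were higher. With 6 genes, 0 calls lie near these shares. At an unadjusted p under 0.05, 1 of them, Ncapd2, was higher. The log2 fold changes of the 6 ran from -0.05 to 0.22, with 4 above 0. In 0 of 6 did every KO library lie above every WT library, which held for 15.7% of all genes. Ncapd2 was the most abundant by RPKM, at 49.96 in WT and 57.3 in KO, with 326, 383 and 346 CPM in WT and 431, 423 and 379 CPM in KO (log2 fold change 0.22, SE 0.11, adjusted p = 0.194). Ncapd3 stood at 136, 123 and 103 CPM in WT and 126, 131 and 136 CPM in KO. Ncaph stood at 104, 82.9 and 61.4 CPM in WT and 94.0, 92.1 and 90.8 CPM in KO. Ncapg had 99.3, 88.7 and 94.2 CPM in WT and 95.7, 122 and 93.1 CPM in KO. These 3 genes had overlapping groups. Ncaph2 had 164, 135 and 154 CPM in WT and 147, 140 and 152 CPM in KO. Ncapg2 had 108, 98.6 and 121 CPM in WT and 117, 103 and 99.6 CPM in KO. Whether the SMC and Ncap subunits differ in response was not tested.

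**Figure D3:**
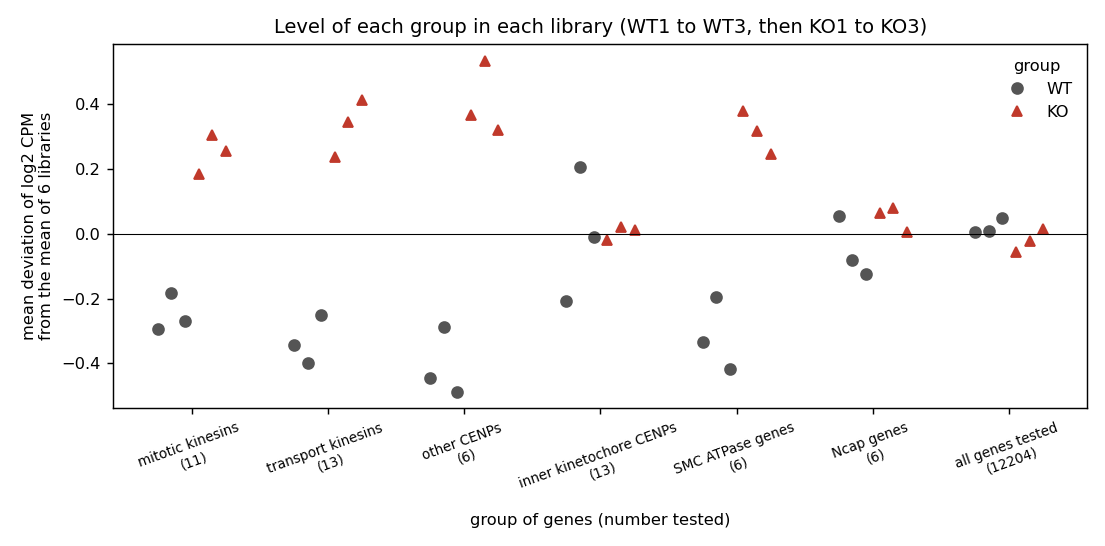
Mean deviation of log2 CPM from the mean of the 6 libraries, for each group of genes in each library, with WT as grey circles and KO as red triangles. Kinesins, CENPs outside the inner kinetochore and SMC ATPases separate the groups (SMC ATPases: -0.42 to -0.19 in WT, 0.25 to 0.38 in KO), while inner kinetochore and Ncap genes overlap.

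Both cohesin ATPases of dividing cells were higher in KO. Smc1a, which has the highest level per length of all members (107 RPKM in WT and 195 RPKM in KO), had 453, 652 and 573 CPM in WT and 953, 912 and 856 CPM in KO (log2 fold change 0.70, SE 0.12, adjusted p = 4.12e-04). Smc3 had 404, 432 and 377 CPM in WT and 639, 510 and 463 CPM in KO (log2 fold change 0.41, SE 0.12, adjusted p = 0.0258). KO replicate 1 was the highest library for both. The Smc3 call was the weakest of the 19. It was lost on leaving out any one of WT replicates 1 and 3 and KO replicates 1 and 2 (adjusted p of up to 0.168), with limma on RPKM and with coding length offsets (adjusted p = 0.217). Smc1b, the form of meiotic cells, had 0, 5 and 4 counts in WT and 32, 0 and 2 counts in KO and was not tested. Smc2os, named for the opposite strand of Smc2, had 17 counts in WT replicate 2 and 0 elsewhere, and the pseudogene Kif4-ps had 0 throughout. The sources used here do not state whether counting used strand, so reads of overlapping genes on the other strand cannot be told apart.

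Smc1a and Kif4 lie on the X chromosome, and the libraries differ in sex-linked counts, with 0 Xist counts in KO replicate 2 and 13480 and 16004 in KO replicates 1 and 3. In KO replicate 2, Smc1a lay between the other KO libraries and Kif4 was the highest of all libraries, at 135 CPM against 108 and 93.9 CPM in the other KO libraries. The Kif4 call was lost without that library, as given above. With the level of Y-linked genes as a covariate, all 19 calls were kept, while 6.61% of all genes were higher.

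In the SMC5/6 complex, Smc6 had 180, 186 and 162 CPM in WT and 252, 271 and 225 CPM in KO (log2 fold change 0.50, SE 0.12, adjusted p = 0.00794). Without KO replicate 2 its adjusted p was 0.0723, and with coding length offsets 0.0688. Smc5 had 188, 208 and 184 CPM in WT and 244, 214 and 244 CPM in KO, again with no overlap between groups. Its log2 fold change was 0.28 with an SE of 0.12 and an adjusted p of 0.132, and 0.0264 with offsets for length and GC content.

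Known partners of these complexes were higher in 13 of 87 tested and lower in 0, against 6.41% and 4.99% of all genes. Their median log2 fold change was 0.28. Of the 13, Casc5, Nipbl, Pds5a, Espl1, Numa1, Cit, Ckap5 and Dync1h1 lie in the 2 longest of 10 deciles of transcript length. There 12.4% of all genes were higher. Ndc80, Zwilch, Incenp, Cdca8 and Dctn1 lie in shorter deciles. With length offsets 12 of the 13 calls were kept (6.63% of all genes higher), and with coding length offsets 11 (5.24%). With limma on RPKM 7 were kept (2.83%), and Cdca8, Cit, Dctn1, Espl1, Incenp and Pds5a were lost. With limma and no filter 0 were kept (0.713%). Without KO replicate 2, 7 of the 13 calls were kept, and Cdca8, Cit, Incenp, Ndc80, Pds5a and Zwilch were lost. These 7 were kept whichever library was left out, and without KO replicate 3 the calls kept numbered 8. At an unadjusted p under 0.05, 25 were higher and 2 lower, against 12.7% and 12.3% of all genes, and DESeq2 called 14 higher and 0 lower, against 6.04% and 5.61%. For cohesin, 3 of 15 were higher, and the median log2 fold change was 0.06. The 2 partners lower at an unadjusted p under 0.05, Cdca5 (log2 fold change -0.76) and Stag1 (-0.32), are of this list. Nipbl, which loads cohesin onto DNA, had 191, 204 and 194 CPM in WT and 373, 390 and 344 CPM in KO (log2 fold change 0.91, SE 0.11, edgeR adjusted p = 1.00e-05). Espl1, the protease that opens cohesin at anaphase, averaged 60.1 ± 7.83 CPM in WT libraries and 101 ± 7.84 CPM in KO libraries (SD, n = 3 each). Rad21 and Stag2, subunits of the ring picked with their values in view, did not pass. Rad21 averaged 447 ± 18.5 CPM in WT libraries and 454 ± 29.9 CPM in KO libraries, and Stag2 averaged 364 ± 41.3 CPM in WT libraries and 346 ± 19.2 CPM in KO libraries (SD, n = 3 each). Of 4 tested partners of SMC5/6, 0 passed in edgeR or DESeq2, and 0 at an unadjusted p under 0.05.

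Outer kinetochore and centromere assembly genes were higher in 2 of 23, Casc5 and Ndc80, a share near the 6.41% of all genes, and the Ndc80 call was lost without KO replicate 2. Checkpoint and passenger genes were higher in 3 of 16, Zwilch, Incenp and Cdca8, and all 3 calls were lost without KO replicate 2 and also without KO replicate 3. Casc5, the scaffold of the outer kinetochore, had 92.0, 121 and 119 CPM in WT and 196, 189 and 156 CPM in KO (log2 fold change 0.70, SE 0.14). Spindle genes were higher in 3 of 15. Ckap5, a microtubule polymerase, had 170, 256 and 209 CPM in WT and 398, 412 and 354 CPM in KO, and Numa1, of the spindle poles, averaged 464 ± 83.9 CPM in WT libraries and 772 ± 56.4 CPM in KO libraries (SD, n = 3 each). Of the cargo transport genes 2 of 14 were higher, Dync1h1, the heavy chain of dynein, at a log2 fold change of 0.65 (SE 0.10), and Dctn1, of its activator dynactin, at 0.60 (SE 0.13).

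The members were set beside markers of dividing cells, which did not move as one. Mki67 and Top2a, at 10061 and 5221 nt, have longer transcripts than Cdk1 and Ccnb1, at 4375 and 2489 nt. What length adds to their differences was not tested beyond the offsets. Mki67, a coat protein of mitotic chromosomes, had 694, 1111 and 685 CPM in WT and 2040, 2378 and 2389 CPM in KO (log2 fold change 1.45, SE 0.20, edgeR adjusted p = 0.00390). Top2a, the topoisomerase of chromosome condensation, rose by 0.36 (SE 0.10, adjusted p = 0.0172), with an adjusted p of up to 0.0921 on leaving out either WT replicate 1 or one of KO replicates 2 and 3 and of 0.265 with coding length offsets. The mitotic kinase Cdk1 averaged 93.5 ± 14.7 CPM in WT libraries and 77.7 ± 6.51 CPM in KO libraries (SD, n = 3 each, edgeR adjusted p = 0.333). Its cyclin Ccnb1 averaged 90.0 ± 13.3 CPM in WT libraries and 89.7 ± 21.1 CPM in KO libraries (SD, n = 3 each, edgeR adjusted p = 0.994). Of the 10 genes of that list, 3, Mki67, Top2a and Foxm1, were higher and 1, Ccna2, was lower. Among all genes tested, 6.41% were higher and 4.99% lower. The Foxm1 call was kept only without WT replicate 2 when a library was left out, and the Mki67 call was kept whichever was. With length offsets the Foxm1 call was kept (edgeR adjusted p = 0.0464). It was lost with length and GC offsets (0.0992), with coding length offsets (0.0790) and with the replicate block (0.0584). Top2a, Foxm1 and Ccna2 also lost their calls with limma on RPKM. The Ccna2 call (adjusted p = 0.0298) was kept without WT replicate 3 and lost, at up to 0.141, without any other single library and with each length offset.

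Transcript length was then set beside the fold changes, because long transcripts are higher in these KO libraries as a whole. Lengths were those of the GENCODE transcript with the longest coding part and were found for all 71 genes. Over all genes tested, the median log2 fold change was -0.22 in the decile with the shortest transcripts and 0.09 in that with the longest, where 16.5% of genes were higher. The 61 members had a median length of 4523 nt, against 2988 nt for all genes. Of the higher members, 18 of 19 had transcripts of 4316 nt or more, and the exception was Cenpv at 1032 nt.

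Members rose more often than other genes of like length in the longer classes. In the 2 longest of 10 deciles of transcript length, 11 of 21 members were higher against 12.4% of all genes. In the 3 deciles below these, 7 of 22 were higher against 6.90%. In the 5 shortest deciles, 1 of 18 was higher against 3.79%, and 10 of these 18 were inner kinetochore genes. Kif21a, at 1.96 against a median of 0.03 in its decile, stood farthest above genes of its length. These shares describe the genes and were not tested.

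Within the mitotic kinesins, the order of the fold changes ran with length. The 5 that rose had transcripts of 4819 to 8943 nt and the 6 that did not pass 2115 to 3674 nt, a split noticed in these data. Over these 11 genes, fold change and length had a Spearman correlation of 0.76 and a Pearson correlation, with log2 length, of 0.64. After length offsets the rank correlation was 0.67. With coding length and no offsets it was 0.81 (Pearson 0.78). The transport kinesins gave a Spearman correlation of -0.20 over 13 genes (Pearson -0.26), and of 0.03 with coding length (Pearson 0.06). Of the 3 longest, Kif21b, at 9115 nt, passed, while Kif1b, at 10233 nt, and Kif13b, at 8865 nt, did not. The shortest that passed was Kif16b, at 4523 nt. Over all 61 members the Spearman correlation was 0.37 (Pearson 0.31), and over all genes tested 0.11 (Pearson 0.06). Genes are not independent replicates and share the same 6 libraries, so no p is given.

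**Figure D4:**
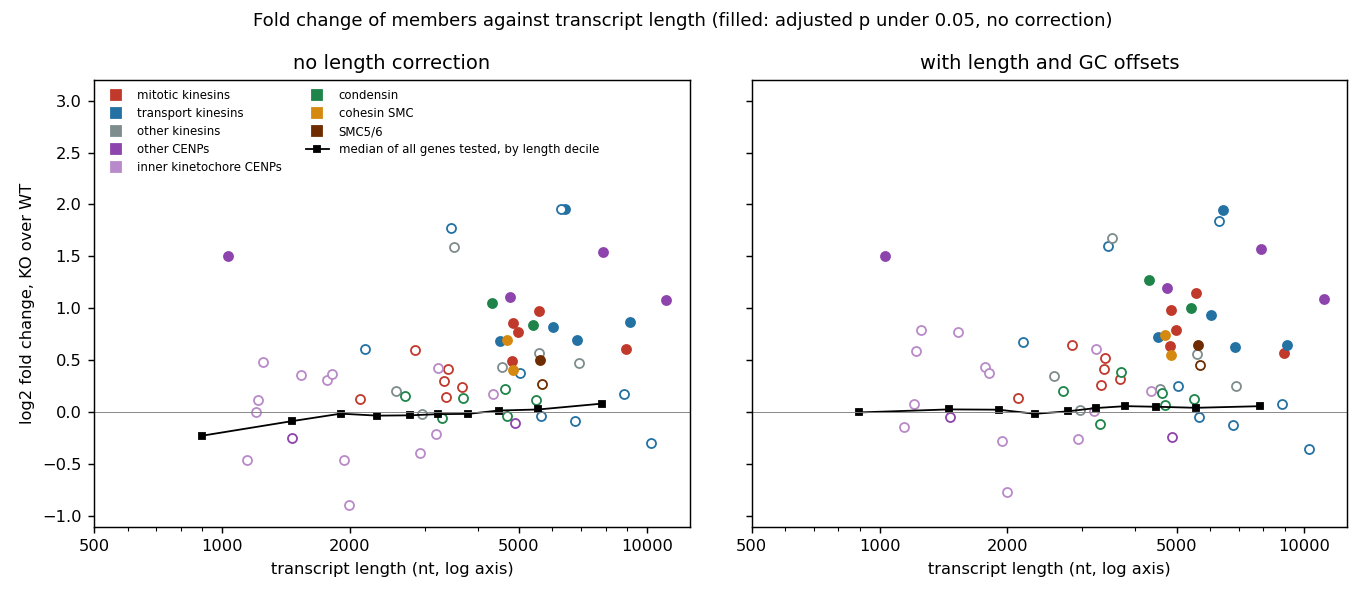
Log2 fold change of each tested member against transcript length on a log axis, coloured by role, before (left) and after (right) offsets for length and GC content; filled points passed without offsets, and the black line joins medians of all genes tested by decile of length. The black line runs from -0.22 to 0.09 on the left and stays between -0.01 and 0.06 on the right, and the filled points stay above it in both.

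Condensin subunits were set side by side by length. Ncapd3 (5499 nt), Ncapg2 (4684 nt) and Ncapd2 (4629 nt) are longer than Smc4 (4316 nt), and did not pass. Smc2, at 5404 nt, is longer than every Ncap gene except Ncapd3. Ncapg, Ncaph2 and Ncaph, at 3703, 3302 and 2695 nt, are shorter than both ATPases. The median length was 5127.5 nt for the 6 tested SMC genes and 4166 nt for the 6 Ncap genes. GC content differed between the groups: the median was 40.3% for the 6 tested SMC genes and 47.6% for the 6 Ncap genes. Ncapg, at 39.8% GC and 3703 nt, had a log2 fold change of 0.14. The part of length or GC content in this contrast was not tested beyond the offsets.

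The members' slopes on length also differed between libraries. Each slope describes how far a library lies from the mean of the 6 libraries, so the 6 slopes centre on 0 and only their order and spacing can be read. In log2 CPM per doubling of length, the slope over the 61 members was -0.11, -0.16 and -0.03 in WT and 0.06, 0.08 and 0.16 in KO. Over all genes tested it was -0.00, -0.08 and -0.01 in WT and 0.02, 0.04 and 0.03 in KO.

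To ask whether the rise follows length, the test was refitted with an offset for each gene and library. The offset removes the smooth trend on length over all genes tested. Decile medians of that trend lay between -0.22 and 0.09, while the lowest log2 fold change among the 19 calls was 0.41. A call of a long member could therefore hardly be lost, so kept calls do not settle whether the members' rise follows length. With length offsets, all 19 calls were kept and none was added, with 6.63% of all genes higher. The fold changes moved by -0.05 (Cenpf) to 0.18 (Cenpv) on the log2 scale. With length and GC offsets, the 19 were kept and Kif2c, Kif23, Smc5 and Cenph were added, with 6.47% of all genes higher. The median of the mitotic kinesins was 0.57 and that of the transport kinesins 0.65 in that fit. Over the 61 members, the Spearman correlation of fold change with transcript length was 0.37 without offsets. It was 0.305 with length offsets and 0.213 with length and GC offsets. With offsets for coding length, an alternative added after seeing the data, 15 of the 19 were kept, and Kif13a, Kif14, Smc3 and Smc6 lost their calls, with 5.24% of all genes higher. Coding length had a Spearman correlation with the log2 fold change of 0.49 over the 61 members and 0.24 over 11740 genes. The other 15 passed under each of the 3 corrections.

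Left-out libraries set the firmness of the single calls. Of the 19, 13 were called whichever library was left out: Cenpe, Cenpf, Cenpj, Kif11, Kif15, Kif16b, Kif20b, Kif21a, Kif21b, Kif5b, Smc1a, Smc2 and Smc4. Without KO replicates 1, 2 and 3 in turn, 17, 13 and 18 of the 19 were called, while 5.23%, 3.57% and 3.88% of all genes were higher. Without WT replicates 1, 2 and 3 in turn, 17, 18 and 17 were called, while 4.73%, 5.68% and 5.63% were higher. WT replicate 3 is the library with the most macrophage and endothelial transcripts, and Cenpv and Smc3 were lost without it. With limma on the deposited RPKM, 13 of the 19 were called at the 2.83% given above. With limma and no filter, 6 were called, Cenpe, Smc4, Smc2, Smc1a, Kif20b and Kif15, while 0.713% of all genes were higher. With the replicate number as a block, all 19 were called (6.24% of all genes higher), and with length and GC offsets added, 23 (7.02%).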

How the data were processed

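Total RNA of 6 libraries was read from a stranded low-input kit, per the labels' protocols. The authors deposited read counts per gene and RPKM values (reads scaled to gene length and library size). TopHat, Cufflinks and build mm9 are named in the submitters' processing notes; the sources used here do not state the counting tool or strand setting. Counts were tested in edgeR 4.0.16 (R 4.3.3; TMM, filterByExpr, robust quasi-likelihood fit, Benjamini-Hochberg adjustment over 12204 genes, threshold 0.05), with all 3 WT and 3 KO libraries and no covariate. The SE is the log2 fold change over the root of F. DESeq2 1.42.0 and limma 3.58.1 on log2(RPKM + 1), for genes with a mean of at least 1 RPKM, were alternatives, as were a pseudocount of 0.1, no filter, other scalings, a Y-linked covariate, leaving out each library, and offsets per gene and library from splines (5 degrees of freedom) on transcript length, with or without GC content. Transcript lengths came from GENCODE basic annotation and were matched for 98.4% of genes; no coordinates were taken from it. Scripts were tested on simulated data. In order of replicate number, the WT libraries held 10191354, 10943143 and 13189329 counts and the KO libraries 14313927, 14590844 and 12020128. The members, gene lists and tests were chosen with earlier results of these data known. Values of every library were given for Uqcrfs1, members past the threshold, the member with the highest mean CPM of each role and the other subunits of complexes with a called member. Of other genes, those past the threshold with the 8 smallest p, and Mki67, Top2a, Ccnb1 and Cdk1, were named; further members and genes were named after their values were seen.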

Additional observations from a re-analysis of the deposited data

How the results depend on the processing

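With 3 libraries a group, single calls near the threshold depended on 1 library. Among 58 named genes and 1099 alternative values, 990 kept direction and side of the threshold, 61 lost and 13 gained a call, and 35 changed sign. The causes were not tested. Members higher numbered 19, 6 with limma on log2(RPKM + 1) without a filter, and 13 to 19 when a library was left out; members lower numbered 0 to 1. All-gene calls were 1391, against 521 with limma on log2(RPKM + 1), 516 with RPKM + 0.1, 166 without a filter, 712 and 833 after leaving out KO replicate 2 or KO replicate 3. The mitotic kinesin median (0.50) was 0.57 with length and GC offsets, 0.40 with coding length offsets and 0.47 to 0.54 with a library left out. The transport kinesin median (0.69) was 0.59 with RPKM + 1, 0.56 without a filter, 0.55 with coding length offsets and 0.63 to 0.75 with a library left out. The centromere protein median (0.18) was 0.38 with length and GC offsets, 0.32 with RPKM + 0.1, 0.30 with RPKM + 1, with or without the filter, 0.30 with coding length offsets and 0.064 to 0.33 with a library left out. The condensin and SMC median (0.25) was 0.42 with length and GC offsets, 0.32 with RPKM + 0.1, 0.15 with coding length offsets and 0.22 to 0.31 with a library left out. The rank correlation with length (0.37) was 0.49 with coding length, 0.76 in mitotic and -0.20 in transport kinesins.

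Same-numbered libraries showed no shared deviation: their deviations correlated at 0.022, 0.012 and -0.003. Whether they were collected or prepared as pairs cannot be told from these values. With the replicate block 19 members were higher; with the block and length and GC offsets 23 were, and the medians of mitotic kinesins, centromere proteins and condensin and SMC genes were 0.57, 0.38 and 0.42.

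Genes near 0 that did not pass changed sign. With a library left out, log2 fold changes ran from -0.078 to 0.37 for Kif13b, -0.12 to 0.34 for Kif18a, -0.23 to 0.11 for Kif3b, -0.36 to 0.084 for Kif3c, -0.11 to 0.045 for Ncapg2, -0.020 to 0.36 for Ncaph, -0.12 to 0.014 for Ncaph2 and -0.18 to 0.16 for Ccnb1. With library totals, Kif3b was at 0.016, Ncapg2 at 0.012, Ncaph2 at 0.0034 and Ccnb1 at 0.045. With length offsets, Ncaph2 was at 0.0091 and Ccnb1 at 0.0076. With length and GC offsets, Ncapg2 was at 0.0745, Cenpc1 at 0.0126 and Ccnb1 at 0.114, and with the block added Ncapg2 was at 0.073 and Ccnb1 at 0.0988. With coding length offsets, Ncapd3 was at -0.038, Cenpa at 0.065 and Ccnb1 at 0.062. With limma on RPKM + 0.1, Ncapg2 was at 0.029 and Ccnb1 at 0.101, and with RPKM + 1, with or without the filter, at 0.028 and 0.0994. Ccnb1 was at 0.0028 with the Y-linked covariate.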
